A study of Mus musculus with 4 samples.

Results

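SMAD4 peaks were examined at 10 genes of the Notch and RBPJ pathway in alveolar macrophages (AMs) of the mouse, which live in the airspaces of the lung. The genes were the receptors Notch1, Notch2 and Notch4, the protease gene Adam10, the DNA-binding effector gene Rbpj, the coactivator genes Maml1, Maml2 and Maml3, and the target genes Hes1 and Hey1. They were chosen by name, out of 21000 protein-coding genes with curated RefSeq transcripts. This choice, and that of the further gene lists below, was made with earlier results of these data known. A peak was assigned to a gene when its summit lay in the gene body or within 50 kb of a transcription start site (TSS) of the gene, and this stretch is called the window of the gene. By this rule the 10 genes held 42 of the 16369 peaks of replicate 1 and 53 of the 19015 peaks of replicate 2. Where a peak of one replicate shared 1 bp or more with a peak of the other, they were joined into a shared region, and the 10 genes held 36 of the 10964 shared regions.

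AMs of wild-type C57BL/6J mice, which the study's methods give as 9 wk old, were recovered by lavage of the airways, fixed and sorted. SMAD4 binding was profiled by HT-ChIPmentation, in which sequencing adapters are put into chromatin by Tn5 transposase while it is still bound to the antibody beads. The series holds 2 libraries precipitated with SMAD4 antibodies and 2 input libraries, all of wild-type cells, so that no condition was compared with another and no test between conditions was possible. No source used here says whether the replicates came from separate mice, and the spread between them may be technical. The inputs set the control level that MACS3 placed under each peak, and library sizes are not given in the files used here.

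Notch receptors are cut by ADAM proteases and then by γ-secretase after they bind a ligand on a neighbouring cell, and the freed intracellular domain enters the nucleus. There it joins RBPJ, which sits on DNA with corepressors in the absence of the signal, and recruits a Mastermind-like coactivator that switches on targets such as Hes and Hey genes. SMAD4 is the common partner of the receptor-activated SMADs that carry signals of the TGFβ family, which AMs need for their development.

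To let the bound DNA be read beside the values, the 201 bases centred on the summit are printed for the strongest shared region of each of the 9 genes that had one, and for the Notch2 region with the highest pileup in replicate 2. Strength was taken as the smaller of the fold enrichments of both replicates. Both Notch4 regions tied at 5.20 by this measure, and the one farther upstream is printed. All sequences are the plus strand of mm10 from the RefSeq release of GRCm38.p6. Capitals mark the strings searched on both strands, which were GTGGGAA for RBPJ, GTCTGG for the SMAD core element, GGCGC for the SMAD GC-rich element, GTCTAGAC for the SMAD palindrome, TTGCNNAA for CEBP, GAGGAAGT for PU.1, TGANTCA for AP-1, TGTGGT for RUNX, AGGTCA for nuclear receptors, TTCNNNGAA for STAT5 and CACGTG for E-box factors. No match of one string overlapped a match of another in these regions. The sequences are from chr2:26549928-26550128 (Notch1), chr3:98032315-98032515 and chr3:98056989-98057189 (Notch2), chr17:34555595-34555795 (Notch4), chr9:70740121-70740321 (Adam10), chr5:53509555-53509755 (Rbpj), chr11:50286449-50286649 (Maml1), chr9:13584670-13584870 (Maml2), chr3:52090361-52090561 (Maml3) and chr3:8691882-8692082 (Hey1).
Notch1 upstream: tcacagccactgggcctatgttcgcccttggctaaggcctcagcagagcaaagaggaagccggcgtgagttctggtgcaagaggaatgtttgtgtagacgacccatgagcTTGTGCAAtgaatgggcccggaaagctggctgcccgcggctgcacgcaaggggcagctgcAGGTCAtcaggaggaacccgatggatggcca
Notch2 first intron: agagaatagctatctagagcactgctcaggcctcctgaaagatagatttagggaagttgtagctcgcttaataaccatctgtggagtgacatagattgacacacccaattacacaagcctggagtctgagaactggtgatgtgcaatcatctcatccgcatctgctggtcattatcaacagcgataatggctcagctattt
Notch2 second intron: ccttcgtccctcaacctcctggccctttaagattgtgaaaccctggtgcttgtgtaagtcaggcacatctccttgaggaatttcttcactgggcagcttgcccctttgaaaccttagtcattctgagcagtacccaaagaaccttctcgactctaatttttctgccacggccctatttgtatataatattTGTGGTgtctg
Notch4 upstream: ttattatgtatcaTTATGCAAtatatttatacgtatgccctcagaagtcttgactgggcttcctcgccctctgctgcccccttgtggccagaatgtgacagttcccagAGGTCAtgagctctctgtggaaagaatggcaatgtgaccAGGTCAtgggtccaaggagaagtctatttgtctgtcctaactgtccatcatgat
Adam10 intron 5: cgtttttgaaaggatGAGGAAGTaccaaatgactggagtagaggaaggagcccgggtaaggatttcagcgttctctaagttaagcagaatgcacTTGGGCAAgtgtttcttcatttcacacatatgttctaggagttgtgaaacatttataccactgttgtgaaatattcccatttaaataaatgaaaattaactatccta
Rbpj upstream: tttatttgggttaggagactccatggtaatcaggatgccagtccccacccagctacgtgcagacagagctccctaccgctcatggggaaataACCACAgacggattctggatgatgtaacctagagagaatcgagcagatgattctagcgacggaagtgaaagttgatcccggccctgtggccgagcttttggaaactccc
Maml1 first intron: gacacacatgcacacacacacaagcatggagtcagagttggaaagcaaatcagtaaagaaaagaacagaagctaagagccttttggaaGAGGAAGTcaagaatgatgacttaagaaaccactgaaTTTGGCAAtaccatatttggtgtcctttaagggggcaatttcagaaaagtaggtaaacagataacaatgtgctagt
Maml2 first intron: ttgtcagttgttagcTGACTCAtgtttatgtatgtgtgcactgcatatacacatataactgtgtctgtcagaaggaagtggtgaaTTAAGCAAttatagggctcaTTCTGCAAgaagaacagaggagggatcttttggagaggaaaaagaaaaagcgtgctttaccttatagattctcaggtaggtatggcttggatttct
Maml3 first intron: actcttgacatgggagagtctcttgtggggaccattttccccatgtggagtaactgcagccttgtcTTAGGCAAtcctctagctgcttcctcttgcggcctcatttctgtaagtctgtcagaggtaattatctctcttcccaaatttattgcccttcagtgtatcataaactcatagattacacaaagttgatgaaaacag
Hey1 upstream: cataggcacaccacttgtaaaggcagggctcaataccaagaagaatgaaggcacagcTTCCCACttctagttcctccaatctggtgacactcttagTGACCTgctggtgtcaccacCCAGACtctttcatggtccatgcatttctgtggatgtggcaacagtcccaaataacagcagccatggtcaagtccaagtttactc

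The strongest Notch2 window held none of the strings, and the second one held a single RUNX string near its edge. Of the windows of 100 bp on each side of the 36 mean summits, the Hey1 one was the sole one with the RBPJ string (2 regions held it around the summits of replicate 1 and 3 within 200 bp), printed there as its reverse complement TTCCCAC.

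Shared SMAD4 regions were found in the windows of 9 of the 10 genes, beside 39.0% of all protein-coding genes. Hes1 was the exception. By the stricter assignment to the closest TSS, 7 of the 10 genes owned at least 1 shared region, beside 21.4% of protein-coding genes, and the genes without one were Notch1, Hes1 and Hey1. At least 2 shared regions lay in the windows of 8 of the 10 genes, beside 19.4% of protein-coding genes. The 10 genes had a median of 2 shared regions, whereas the median protein-coding gene had 0.

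Long genes have long windows, so the counts were also set beside window length. The windows of the 10 genes covered 1.92 Mb and held 1.87 shared regions per 100 kb, which fell to 1.38 when Notch2 was left out. These values pool the windows, whereas the mean of the densities of single protein-coding genes, 0.707 per 100 kb, weights each gene equally. By gene, the median density was 1.65 per 100 kb over the 10 genes and 0 over protein-coding genes. Of the genes with windows of at most 110 kb, 36.9% had a shared region, and of the longer ones 46.9%. Notch1, Notch4, Maml1 and Hey1 had a region with the short window, Hes1 had none with it, and the 5 genes with longer windows all had one.

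**Figure D1:**
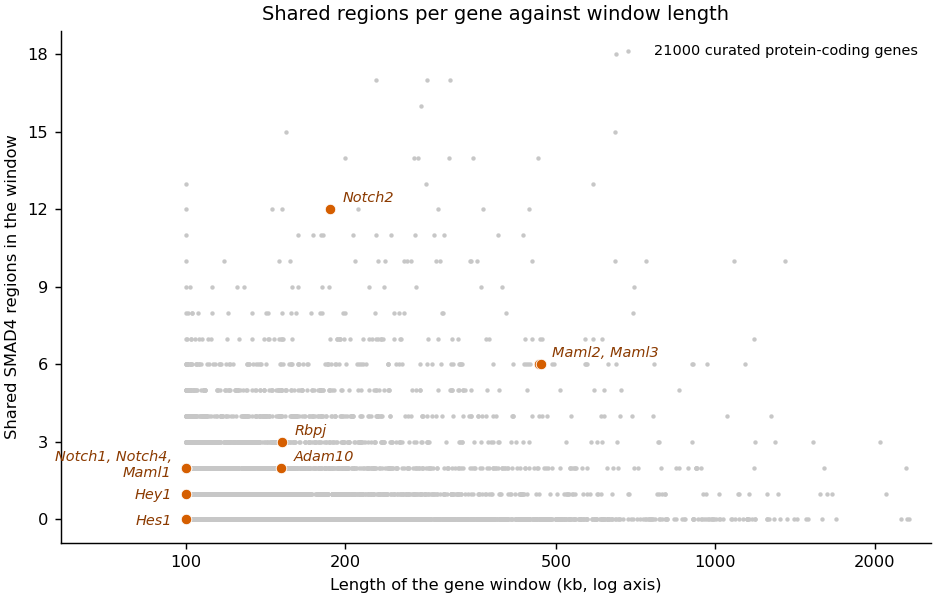
Shared SMAD4 regions in the window of each gene (vertical axis) against the length of the window in kb (horizontal log axis), with protein-coding genes in grey and the 10 pathway genes in orange. Notch2 stands at 12 regions in 186.8 kb, Maml2 and Maml3 at 6 regions in windows of over 400 kb, and Hes1 at 0.

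Of the 42 peaks of replicate 1 in the 10 windows, 36 (85.7%, 95% exact binomial interval 71.5 to 94.6%) overlapped a peak of replicate 2. Of the 53 peaks of replicate 2, 37 (69.8%, 55.7 to 81.7%) overlapped a peak of replicate 1. Over the whole lists these shares were 69.4% and 59.2%. The intervals cover counting error only, and in replicate 2 the share of the whole list lay within the interval of the pathway genes. Peaks without a partner had folds between 4.18 and 5.85 in replicate 1 and between 3.56 and 9.48 in replicate 2, and the median over each whole list was 5.52 and 6.77.

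**Figure D2:**
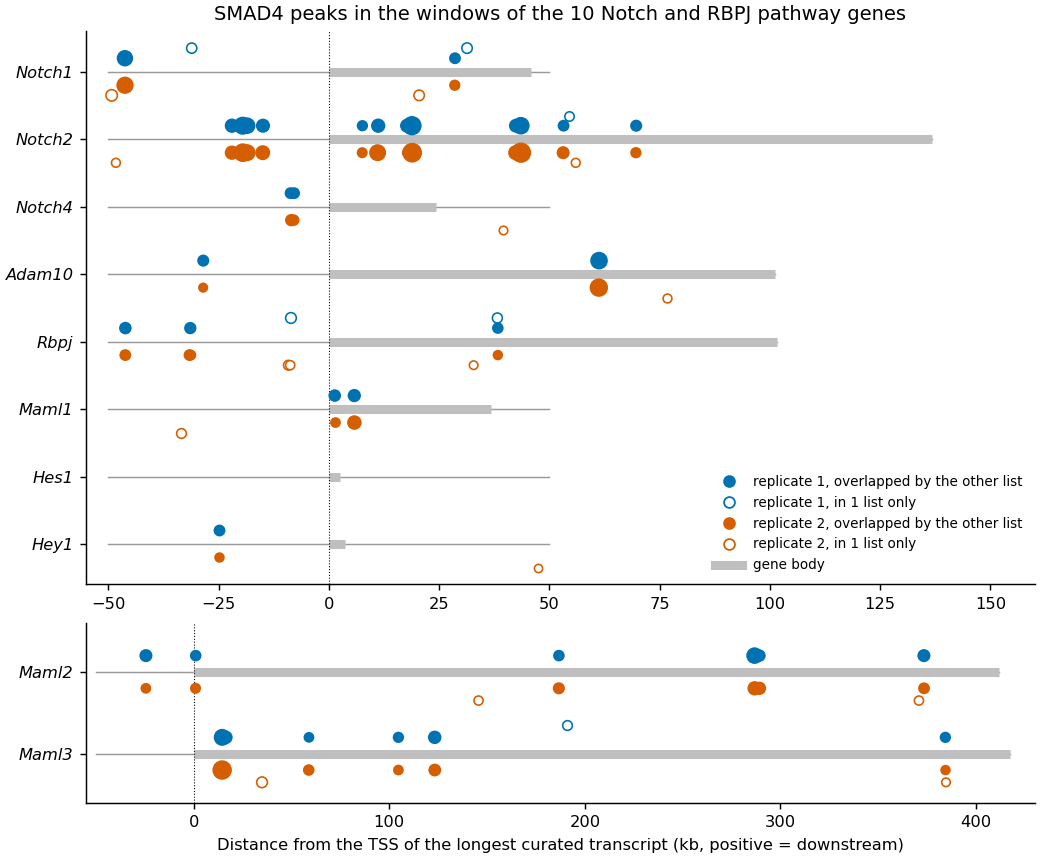
Summits of SMAD4 peaks in the windows of the 10 genes, by distance in kb from the TSS of the longest curated transcript, with gene bodies as grey bars, the window as a thin line, replicate 1 above it in blue, replicate 2 below it in orange, and the area of a circle growing with the pileup. Filled circles are peaks overlapped by the other list and open ones (set farther from the line) are the 6 peaks of replicate 1 and 16 of replicate 2 that had no partner. Notch2 carries filled pairs on both sides of its TSS and Hes1 carries none.

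Among the receptors, Notch2 stood apart by number. Its window of 186.8 kb on chromosome 3 held 13 peaks in replicate 1 and 14 in replicate 2, which formed 12 shared regions, and for all 12 the closest TSS was that of Notch2. This was 33.3% of the regions found for the 10 genes, at 6.42 per 100 kb. As many regions were seen for 24 of all protein-coding genes (0.114%), and for 5 of the 1197 genes with windows of 150 to 220 kb (0.418%).

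The Notch2 regions lay in separate stretches around the gene. Upstream, 4 regions sat between 21963 and 14949 bp before the TSS. A further 4 lay in the first intron, 3 in the second and 1 in intron 5. No shared region of Notch2, or of any of the other genes, lay in a promoter (from 1 kb before a TSS to 100 bp after it).

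The strongest Notch2 region was chr3:98031958-98032892 in the first intron, 18877 bp downstream of the TSS. Its summit pileup, the number of fragments stacked there, was 55 in replicate 1 (95% exact Poisson interval 41.4 to 71.6) and 58 in replicate 2 (44.0 to 75.0), over control levels of 2.08 and 1.22. Fold was taken with 1 added to both pileup and control level, which gave 18.2 and 26.6. It ranked 559 of all 10964 shared regions by the smaller fold.

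The second-intron region chr3:98056699-98057466 had pileups of 44 and 62 and folds of 14.6 and 28.4. Upstream, chr3:97993623-97994582 had pileups of 47 and 51 and folds of 15.6 and 23.5. Its neighbour 985 bp closer to the gene, chr3:97994695-97995221, had pileups of 38 and 40 and folds of 12.7 and 18.5. These 4 regions were the ones at Notch2 that reached a fold of 10 in both replicates.

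The weakest Notch2 region was the one nearest to the TSS, 7597 bp into the first intron, with folds of 4.55 and 5.44 from pileups of 13 and 12. A region 1123 bp before the strongest one was the sole Notch2 region with a lower fold in replicate 2, at 8.45 in replicate 1 and 4.96 in replicate 2. Its pileups of 25 and 10 had overlapping Poisson intervals, as did those of the other 11 regions. Neighbours in the order of strength also had overlapping intervals, which does not show that they were equal, and their differences were not tested. The 4 strong regions had pileups of at least 38 in both replicates, whereas the regions 7597, 53173 and 69650 bp downstream had at most 20.

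**Figure D3:**
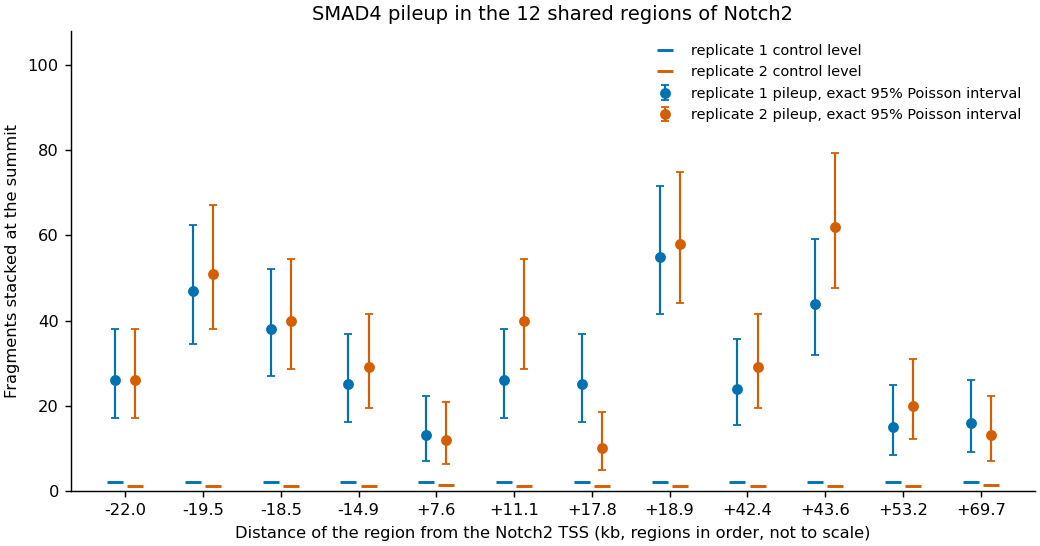
Fragments stacked at the summit (vertical axis) in the 12 shared regions of Notch2, ordered along the gene by distance from its TSS in kb, with circles for the pileup, bars for the exact 95% Poisson interval and dashes for the control level, in blue for replicate 1 and orange for replicate 2. Pileups run from 13 to 55 in replicate 1 and from 10 to 62 in replicate 2, and the bars of both replicates overlap in each region.

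Notch1 had 2 shared regions, and neither had the Notch1 TSS as its closest. The stronger, chr2:26549823-26550220, was intergenic, 46206 bp upstream of Notch1, and its closest TSS was that of Egfl7. Its pileups were 37 and 42 and its folds 12.3 and 19.4. The other lay in intron 15 of Notch1, closest to the microRNA gene Mir6996, with pileups of 15 and 13 and folds of 4.77 and 6.32. Each replicate had 2 further peaks in the window that the other lacked, the strongest with a fold of 9.48 in replicate 2, 49222 bp upstream.

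Notch4 had 2 weak regions that lay 694 bp apart, at 8600 and 7906 bp upstream of its TSS on chromosome 17. The farther one had pileups of 15 and 17 and folds of 5.20 and 7.54, and the nearer one had pileups of 15 and 14 and folds of 5.20 and 6.77. Notch4 had the closest TSS to both, but the stretch is crowded, and the regions also fell in the windows of 5 and 6 other protein-coding genes. Thus 1 of the 3 receptors had a strong region assigned to it by both rules.

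ADAM10 makes the first cut of a ligand-bound Notch receptor. Its gene had a strong region in intron 5, chr9:70740012-70740656, which lay 61239 bp downstream of the TSS. Replicate 1 had a pileup of 44 there (95% exact Poisson interval 32.0 to 59.1) and replicate 2 one of 49 (36.3 to 64.8), for folds of 14.6 and 22.6. The other shared region of the window, 28471 bp upstream, was weak, with folds of 5.52 and 4.51, and lay in an intron of Mindy2, which also owned its closest TSS.

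RBPJ, the DNA-binding protein on which signals from all Notch receptors converge, had 3 shared regions at its own gene, all weak. The one at 46124 bp upstream had pileups of 18 and 15 and folds of 6.17 and 7.22. That at 31487 bp upstream had pileups of 17 and 15 and folds of 3.66 and 7.22, and the control level of replicate 1 there was 3.92, above the 2.08 seen at 37 of the 42 peaks of replicate 1. The last lay 3615 bp inside the closest of the 3 curated start sites, with pileups of 14 and 10 and folds of 4.87 and 4.96.

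Rbpj also had 5 peaks that were in 1 list alone, the highest number among the 10 genes. In replicate 1, 2 of its 5 peaks lacked a partner, and in replicate 2, 3 of 7 overlapped none. A peak of replicate 1 with a fold of 5.85 and a peak of replicate 2 with a fold of 5.41, 8574 and 8752 bp upstream, had summits 178 bp apart but did not overlap, and so were not counted as shared. Beyond the window, 3 more shared regions had Rbpj as the closest TSS, at 103793, 125522 and 140047 bp from it. The farthest had pileups of 21 and 38 and folds of 7.15 and 17.6, which exceeded the folds of every region inside the window.

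The Mastermind-like proteins bridge RBPJ and the Notch intracellular domain to histone acetyltransferases, and all 3 of their genes had regions in introns. Maml1 had 2, both in the first intron on chromosome 11. The region 5787 bp downstream of the TSS had pileups of 21 and 27 and folds of 7.15 and 12.6, and the region at 1431 bp had pileups of 18 and 11 and folds of 6.17 and 5.41. The latter was weaker in replicate 2 than in replicate 1, with overlapping Poisson intervals.

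Maml2 had 6 shared regions in a window of 464.5 kb, and Maml3 had 6 in 467.4 kb. At least 6 regions were found for 19 of the 198 genes with windows of 400 to 550 kb (9.6%). Their density, 1.29 and 1.28 per 100 kb, was the lowest of the 10 genes apart from Hey1 and Hes1.

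At Maml2, the strongest region was chr9:13584442-13584951, deep in the long first intron, with pileups of 38 and 26 and folds of 12.7 and 12.2. A second region 2484 bp farther had folds of 6.17 and 9.93. The remaining 4 had folds between 4.84 and 6.82 in replicate 1 and between 4.62 and 7.59 in replicate 2. One of them lay 960 bp downstream of the first TSS, one 24450 bp upstream in an intron of Ccdc82, and one had Phxr4 as its closest TSS.

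At Maml3, the strongest region was chr3:52090126-52090714 in the first intron, 14545 bp from the TSS. It had pileups of 40 and 56 and folds of 13.3 and 25.7. A neighbour 1943 bp away had a fold of 7.47 in replicate 1 and 4.96 in replicate 2. The other 4 had folds of 3.90 to 7.47 and 4.96 to 9.02, and the one farthest into the gene, in the second intron, had Mgst2 as its closest TSS.

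HES1 and HEY1 are repressors of the basic helix-loop-helix class and standard readouts of Notch activity. Hes1 had no peak of either list in its window. The closest shared region was 74506 bp from the Hes1 TSS, outside the limit of 50 kb, with folds of 4.87 and 8.12, and its closest TSS was that of Gm1968. Peak lists hold what passed the limit on q, so this says that no peak reached it there, not that SMAD4 was absent.

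Hey1 had 1 shared region, chr3:8691880-8692089, 24944 bp upstream. Its pileups were 15 and 10 and its folds 5.20 and 4.96. The region lay in an exon of the noncoding gene Gm32561, which also had the closest TSS. Among the 10 genes, Hes1 and Hey1 thus made targets the role with the fewest regions, and neither owned one by closest curated TSS. Both have windows of 100 kb, and 36.9% of protein-coding genes with windows of at most 110 kb had a region. This does not hold for targets in general. Of 6 further targets examined below, 4 had a region in the window and 1 owned one by closest TSS.

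The limit of 50 kb took in some distant regions and left out others just beyond it. Just inside were the upstream regions of Notch1 at 46206 bp and of Rbpj at 46124 bp. Just outside were a region 52418 bp from the Maml2 TSS, with folds of 6.17 and 5.41 and Jrkl as the closest gene, and one 53082 bp from the Maml1 TSS, with folds of 10.7 and 17.2 and Ltc4s as the closest gene. The latter was stronger than both regions inside the Maml1 window.

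In strength, the median of the 36 regions was below that of the series. By the smaller fold of both replicates their median was 5.47, beside 6.50 over all shared regions, and 15 of the 36 lay above the latter. The median fold was 6.17 in replicate 1 and 7.38 in replicate 2, beside 6.82 and 9.48 over all shared regions. A fold of 10 in both replicates was reached by 8 regions (22.2%), beside 23.3% of all shared regions. These 8 belonged to Notch2 (4), Notch1, Adam10, Maml2 and Maml3. Thus 5 of the 10 genes had such a region in their window, beside 13.6% of protein-coding genes. The latter share is over windows of all lengths, whereas those of Notch2, Adam10, Maml2 and Maml3 were 151 to 467 kb long. The share among genes with windows of like length was not worked out. The Notch1 region had Egfl7 as its closest TSS.

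Fold was higher in replicate 2 than in replicate 1 at 29 of the 36 regions (80.6%), as it was at 87.2% of all shared regions. Most peaks stood over a control level of 2.08 in replicate 1 or 1.22 in replicate 2, the lowest level of each over all shared regions. At equal pileup, the lower control level gives the higher fold. The median pileup of the 36 regions was 19 in replicate 1 and 15.5 in replicate 2. Over all shared regions it was 20 and 21. The Poisson intervals of the pileups of both replicates overlapped in each of the 36 regions. Here and above, pileups were not scaled between libraries of unknown size, so such overlap does not measure agreement of binding. Spearman's rho between the folds of the replicates was 0.70 over the 36 regions and 0.78 over all 10964. These are descriptions across regions of the same pair of libraries.

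**Figure D4:**
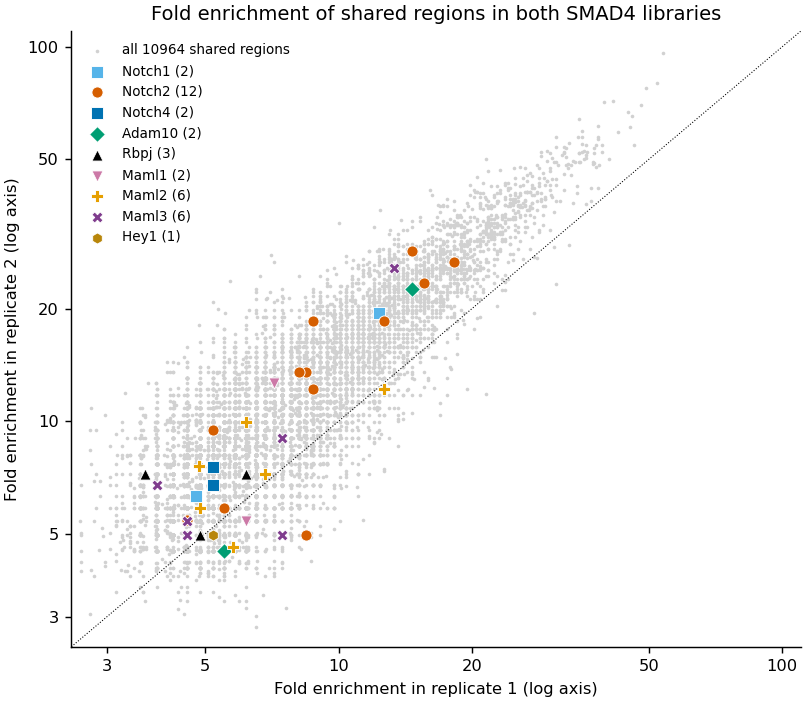
Fold enrichment in replicate 2 against replicate 1, both on log axes, for all 10964 shared regions in grey and for the 36 regions of the pathway genes by colour and shape, with a dotted line at equal folds. The strong regions of Notch2, Notch1, Adam10 and Maml3 lie above the line, the strong Maml2 region lies just below it, and the regions of Rbpj, Notch4 and Hey1 lie under a fold of 8 on both axes.

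By place, introns held 26 of the 36 (72.2%), beside 49.3% of all shared regions, and 9 were intergenic (25.0%), beside 40.5%. The remaining one was the exonic Hey1 region (2.78%), beside 2.49% of all shared regions in exons, and none lay at a transcription termination site, beside 1.3%. Promoters held 0 of 36, which allows a share of up to 8.33%, beside 6.42% of all shared regions. Most of the intronic regions lay in the long first introns, with 16 of the 36 in the first intron of the longest curated transcript of their gene. The median distance to the closest TSS was 19190 bp, beside 18040 bp over all shared regions. The median window of the 10 genes was 125.6 kb long, beside 100 kb over protein-coding genes, and the rule itself takes summits in a gene body or near a TSS, which by construction raises the intronic share and lowers the intergenic one. These shares are therefore a description of the windows, and the part of gene length in them was not tested.

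By sequence, the CEBP string was the most frequent of the 11 searched, in 20 of the 36 regions (55.6%, 95% exact binomial interval 38.1 to 72.1%), beside 40.9% of all shared regions. It was found in 7 of the 12 Notch2 regions, in both regions of Notch1 and of Notch4, and in none of the 3 Rbpj regions. The nuclear receptor string was in 8 regions (22.2%, beside 15.4%), and both regions of Notch1 and both of Notch4 held it together with CEBP. RUNX was in 6 regions (16.7%, beside 26.4%).

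Strings of the SMADs themselves were less frequent. GTCTGG was in 3 regions (8.33%, beside 11.2%), one each at Rbpj, Maml2 and Hey1. GGCGC was in 1 region of Maml3 (2.78%, beside 5.24%), and the palindrome was in 0 of 36, which allows up to 8.33%, beside 0.465% of all shared regions. None of the 12 Notch2 regions held one of these SMAD strings as searched. The shorter GTCTG, which was not searched, can be read in both printed Notch2 windows.

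The RBPJ string was in 1 region (2.78%, beside 4.14%), the upstream region of Hey1, where it lay 40 bp from the summit and together with GTCTGG and the nuclear receptor string. PU.1 was in 2 regions (5.56%, beside 8.0%), the strongest ones of Adam10 and of Maml1. AP-1 was in 2 regions of Maml2 (beside 12.3% of all shared regions) and STAT5 in 2 of Notch2 (beside 8.06%), while the E-box string was in none (beside 3.65%). For every string, the share in all shared regions lay within the interval of the 36 regions. A match of these letters does not show that a factor binds, and no match says only that the letters were not in the window.

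**Figure D5:**
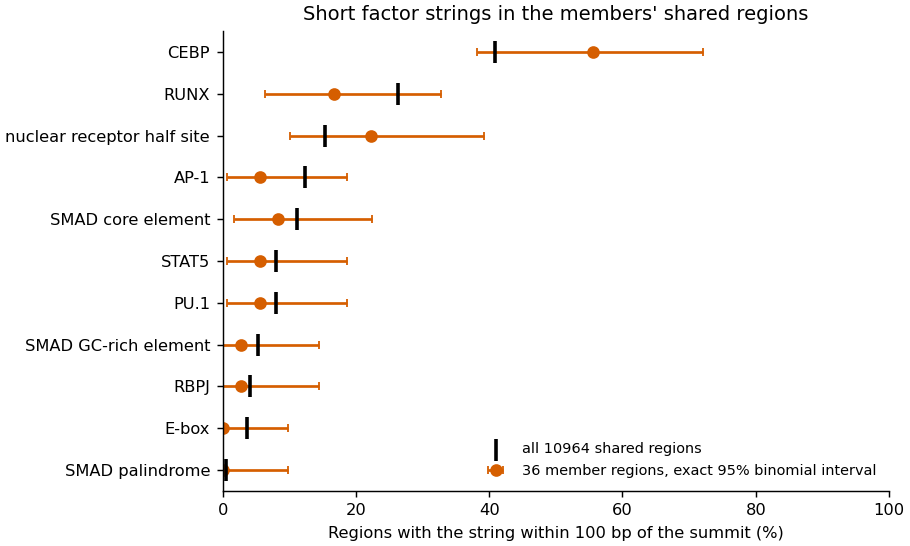
Share of regions in percent (horizontal axis) with each of the 11 strings within 100 bp of the summit, as orange circles with exact 95% binomial intervals for the 36 regions of the pathway genes and black marks for all 10964 shared regions. CEBP is highest in both sets, at 55.6% and 40.9%, and each black mark lies inside the orange interval.

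The other genes of the pathway were taken from a list of 48. Shared regions lay in the windows of 28 of them (58.3%), beside 39.0% of protein-coding genes, and 12 owned one in the window by closest TSS (25.0%), beside 19.9% of protein-coding genes. The classes are small, and their counts are a description. The regulators of endocytosis and turnover, such as the ubiquitin ligases that act on receptors and ligands, had one in 9 of 10 cases and the processing enzymes in 6 of 9. Among cofactors it was 6 of 12, among further targets 4 of 6, among ligands 2 of 6, among enzymes of glycosylation 1 of 4, and the remaining receptor, Notch3, had none. By closest TSS the counts were lower, at 5 of 10 for endocytosis and turnover and 4 of 9 for processing. They were 2 of 12 for cofactors, 1 of 6 for targets, 0 of 6 for ligands and 0 of 4 for glycosylation. The 3 strongest regions fell in the windows of Psen2, a catalytic subunit of γ-secretase (folds of 27.3 and 38.4), Hes6 (24.4 and 40.2) and Hes5 (22.7 and 35.2), and each of them had another gene, Gm31728, Per2 and Prxl2b in that order, as its closest TSS.

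The label of the cells was set beside marker genes in the same way. All 9 AM markers had a shared region in their window, as did 3 of 10 markers of other cells of the blood and lung (S100a8, Scgb1a1 and Pecam1), with 39.0% of protein-coding genes as the background. By closest TSS, 8 of the 9 and 3 of the 10 owned one in the window, beside 19.9% of protein-coding genes. The strongest regions of S100a8 (folds of 13.6 and 30.7) and Scgb1a1 (7.47 and 11.3) lay in promoters. The highest smaller fold of each AM marker ran from 6.50 (Fcgr1) to 45.8 (Chil3). The files hold binding alone, so neither the expression of these genes nor that of the 10 pathway genes was measured here.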

How the data were processed

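Per the labels and the study's methods, the authors trimmed, aligned (Bowtie2, mm10) and filtered reads, and called peaks with MACS3 against input at a q limit of 0.05, in each SMAD4 library alone. Each deposited peak has a fold ratio over the control level, with the same constant added to pileup and control level. It also has a −log10 p, a −log10 q, a summit offset (the other column used) and a score. The deposited score (the −log10 q times 10, rounded down) was not used. The whole pileup and the control level were solved from fold and p for all peaks, with p matched within 0.02 on the −log10 scale. Precision is given as exact Poisson or binomial intervals, which cover counting error only. Replicate numbers follow accession order and pair nothing.

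Gene models were curated RefSeq transcripts of GRCm38.p6. The position of a shared region was the mean of the summits of its strongest peak in each list, and strings were searched within 100 bp of it. The 10 genes and all lists were chosen with earlier results of these data known. All 10 genes were named, with the strongest region of each in full, and of the 48 further genes the 3 with the highest smaller fold. No test was run. Pileup solving and overlap were tested on simulated data. The libraries were scipy 1.17.1, pandas 2.3.3 and pysam 0.24.0. Alternatives varied the window, overlap, q, fold, transcripts, replicate and string window. Peak lists of other factors named in the study were not analysed here, and 1 marker gene is not reported here.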

Additional observations from a re-analysis of the deposited data

How the results depend on the processing

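The number of the 10 genes with a shared region stayed between 8 and 10 under every alternative of window, overlap, q, fold, transcripts and replicate. The count of shared regions kept within 1.5 times of 36, between 24 (without Notch2, an alternative chosen after seeing the data) and 52 (windows of 100 kb), except with a fold of at least 5 in both lists, where it was 22 because fewer peaks entered. With 1 list alone, the windows held 42 to 53 peaks and 9 genes had one, and 7 genes owned one by closest TSS with either list. With 50% reciprocal overlap, the share of peaks with a partner was 61.9% in replicate 1 and 49.1% in replicate 2, and Maml1 lost both its regions. Hes1 gained a region with windows of 100 kb, and Hey1 lost its region with windows of 10 kb or a fold of at least 5. With protein-coding genes alone as candidates for the closest TSS, all 10 genes owned a region, Notch1, Hes1 and Hey1 included. With predicted transcripts Notch4 lost its own. The share of all protein-coding genes was not worked out under these alternatives or those above, so their gene counts have no background beside them. Over all shared regions, strings were searched only within 100 bp of the mean summit. String values at other windows or summits, here and above, therefore have no background beside them. Within 50 bp of the summit the CEBP string was in 36.1% and GGCGC in 0% of the 36 regions. Strings in few regions moved most with the window: from 50 to 200 bp on each side, RBPJ went from 1 to 3 regions, the SMAD core element from 1 to 5, GGCGC from 0 to 2, AP-1 from 1 to 6, PU.1 and STAT5 from 1 to 3, the E-box string from 0 to 1 and the nuclear receptor string from 5 to 13. With the wider CEBP string TTNCNNAA, chosen after seeing the data, it was 86.1%, beside 77.0% of all shared regions. Of the counts per gene, 27 of 100 moved by over 1.5 times, with Notch2 between 8 and 16 regions throughout. No paired analysis was possible because the labels give no replicate numbers and no result came from a test. Library sizes are not known here, and the weakest shared regions rested on pileups of 11 fragments in replicate 1 and 9 in replicate 2.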
